A study of Mus musculus with 3 samples.

Results

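The genes described here encode the subunits of heterotrimeric G proteins and the regulators of G protein signaling (RGS). They were chosen by symbol (rows beginning *Gna*, *Gnai*, *Gnb*, *Gng* or *Rgs* followed by a digit, with *Gnao1*, *Gnaq*, *Gnas*, *Gnal* and *Gnaz*; 1 γ subunit row was left out), which gave 46 of the 14933 rows of the filtered UMI table. A UMI marks 1 captured RNA molecule. The set holds 12 Gα, 3 Gβ, 9 Gγ and 18 *Rgs* rows, 2 RGS anchor rows (*Rgs7bp* and *Rgs9bp*), and *Gnb2l1* and *Gnb1l*, which carry a β symbol although their products are not β subunits of the heterotrimer. Droplet libraries (10X Chromium, 3′ end) were made from tdTomato-positive cells sorted from the medial prefrontal cortex (mPFC) of C57Bl6 mice at postnatal day 5, with 1 library for each of wild-type (Rbp4cre::tdTomato), heterozygous (Tbr1f/+::Rbp4cre::tdTomato) and homozygous (Tbr1f/f::Rbp4cre::tdTomato) mice. All 3 genotypes carry *Rbp4-cre*, a driver of Cre in cortical layer 5 neurons, and the Cre-dependent reporter, so the driver alone does not separate the groups. *Tbr1* encodes a T-box transcription factor of deep-layer cortical neurons. The number of animals pooled per library is not given in the sources used here, and with 1 library per genotype there is no replicate and no test between genotypes.

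A heterotrimeric G protein couples a seven-transmembrane receptor to enzymes and channels inside the cell. An activated receptor loads the α subunit with GTP, the α subunit and the βγ pair separate, and each acts on its effectors until the α subunit hydrolyzes the GTP. RGS proteins speed up that hydrolysis and so shorten the signal. In neurons the pathway carries the effects of glutamate, GABA, dopamine, acetylcholine and opioid receptors on excitability and transmitter release.

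The authors divided the sorted cells into typical neuronal cells (1778 wild-type, 5357 heterozygous and 3935 homozygous), atypical neuronal cells (304, 107 and 462) and other cells (2873, 1398 and 1182). The typical cells held 3670646, 10418228 and 6074494 UMIs. Median UMIs per typical cell were 1902, 1743 and 1376, so the homozygous cells were the shallowest. Levels are counts per 1000000 UMIs of the cell group (CPM), with an exact Poisson 95% interval, and ratios are log2 ratios of CPM with an exact binomial 95% interval. Both intervals cover counting error only, and neither measures how libraries of 1 genotype would differ. Fewer cells expressing a gene and less RNA per cell cannot be told apart in a summed level. The summed excitatory neuron markers were 2928 CPM, 3598 CPM and 4250 CPM in the typical cells of the wild-type, heterozygous and homozygous libraries, with 8 of 8 markers detected in each. The 9 astrocyte and radial glia markers summed to 7009 CPM, 6068 CPM and 6929 CPM there, above the excitatory sum in each library. The 5 blood markers were highest in wild-type, at 345 CPM, 44.6 CPM and 85.8 CPM. The part of such RNA in the member levels was not tested. *Tbr1* itself stood at 27.5 CPM (22.4 to 33.4), 30.7 CPM (27.4 to 34.3) and 22.4 CPM (18.8 to 26.5), and a 3′ count does not cover the floxed exons, so it is no check of the deletion. The libraries shared 47, 37 and 58 cell barcodes, and no caller of doublets was run.

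Among the 28 members with a mean of at least 20 CPM in typical cells, the stimulatory α subunit gene *Gnas* was the most abundant and *Rgs7bp* the least. UMIs come from the 3′ end of each RNA, so CPM were not divided by gene length, and the order between genes also reflects how well each 3′ end was captured. The *Gnas* row pools all transcripts of its locus. A plot of the 28 levels by library shows that the order was nearly the same in the 3 libraries, with *Gnb2l1*, *Gnb1*, *Gnai1* and *Rgs17* set apart in the wild-type library.

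**Figure D1:**
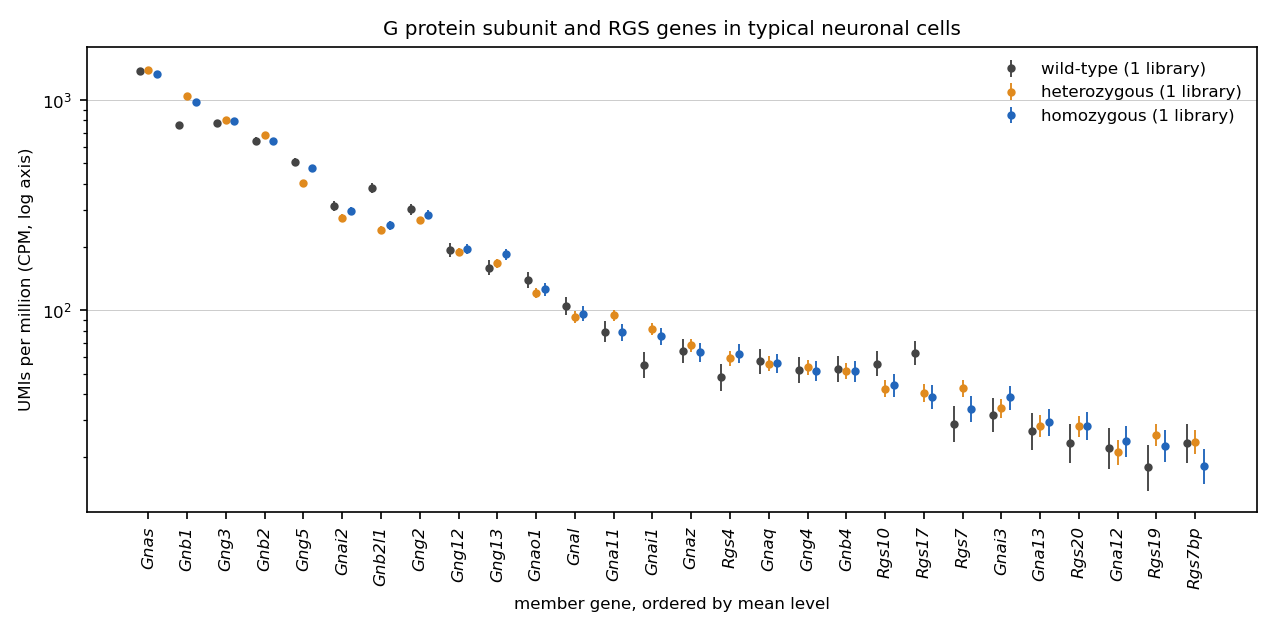
Level of each of the 28 members with a mean of at least 20 CPM in typical neuronal cells. Points are 1 library per genotype, bars are exact Poisson 95% intervals of the count, and the vertical axis is logarithmic; *Gnas* lies near 1400 CPM and *Rgs7bp* near 20 CPM.

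*Gnas*, whose product Gαs stimulates adenylyl cyclase, had typical-cell levels of 1380 CPM, 1393 CPM and 1336 CPM in the wild-type, heterozygous and homozygous libraries, the order kept in the values that follow. Its close relative *Gnal*, which encodes the Golf α subunit of olfactory and striatal neurons, was at 104.9 CPM, 93.3 CPM and 96.5 CPM. *Gnai2*, which inhibits the cyclase, led the Gi/o/z class at 314.1 CPM, 276.0 CPM and 297.0 CPM. *Gnao1*, the abundant Go α subunit of brain, followed at 139.5 CPM, 121.3 CPM and 125.8 CPM. *Gnai1* was at 55.0 CPM, 81.7 CPM and 75.4 CPM, with both mutant intervals above the wild-type interval. *Gnaz* (63.1 to 68.1 CPM) and *Gnai3* (31.9 to 38.5 CPM) lay lower. *Gna11* (78.5 to 94.5 CPM) and *Gnaq* (55.8 to 57.5 CPM) act on phospholipase Cβ. *Gna11* was highest in the heterozygous library, with a heterozygous over wild-type log2 ratio of 0.25. *Gna13* and *Gna12* (21.1 to 29.5 CPM), which act on RhoGEFs, lay lower. Together the 12 α genes took 2276 CPM, 2267 CPM and 2221 CPM, a homozygous over wild-type log2 ratio of −0.04 (−0.07 to 0.00).

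The β subunit genes *Gnb1* and *Gnb2* were near each other in wild-type typical cells and apart in both mutant libraries. *Gnb1* was at 761 CPM, 1044 CPM and 974 CPM, and *Gnb2* at 641 CPM, 682 CPM and 638 CPM. *Gnb4* was at 52.6 CPM, 51.4 CPM and 51.2 CPM. The 3 β genes summed to 1455 CPM, 1777 CPM and 1663 CPM, log2 0.19 (0.14 to 0.24) for homozygous over wild-type and 0.29 (0.24 to 0.33) for heterozygous over wild-type, and on raw UMIs per cell, which shift the ratio of every gene alike by −0.42 and −0.09 and the median of all genes to −0.34 and −0.02, the first turned to −0.23 while the second was 0.20. *Gnb2l1* encodes the scaffold RACK1, a component of the small ribosomal subunit that shares the propeller fold of Gβ. It was at 383 CPM, 242 CPM and 254 CPM, so its wild-type value stood above both others.

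The 9 γ genes, whose products anchor the βγ pair to the membrane, summed to 2019 CPM, 1904 CPM and 2012 CPM. *Gng3*, a neuronal γ subunit, led at 774 CPM, 806 CPM and 799 CPM, and *Gng5*, a broadly expressed one, followed at 509 CPM, 404 CPM and 475 CPM. *Gng5* was lowest in the heterozygous library, with an interval apart from both others. *Gng2* (268 to 302 CPM), *Gng12* (190 to 196 CPM), *Gng13* (159 to 185 CPM) and *Gng4* (51.7 to 53.7 CPM) made up most of the rest.

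The 18 *Rgs* genes together took 323 CPM, 312 CPM and 304 CPM. *Rgs4*, a member of the R4 family that acts on Gi and Gq, was at 47.9 CPM, 59.2 CPM and 62.2 CPM. *Rgs17*, of the RZ family, was at 62.7 CPM, 40.4 CPM and 38.9 CPM, the highest of the *Rgs* genes in the wild-type library and below *Rgs4* in both mutant libraries. *Rgs10*, of the R12 family and known for its high level in microglia, was at 55.8 CPM, 42.4 CPM and 44.0 CPM. *Rgs7*, of the R7 family whose members pair with Gβ5, was at 28.9 CPM, 42.6 CPM and 34.1 CPM. *Rgs20* (23.4 to 28.3 CPM) and *Rgs19* (18.0 to 25.5 CPM) complete the RZ family, and *Rgs7bp*, which anchors R7 proteins at the membrane, was at 23.4 CPM, 23.7 CPM and 18.1 CPM. The other 18 members had a mean below 20 CPM, and 1 of them, *Rgs18*, had 0 UMIs in typical cells of all 3 libraries, which allows a level of up to 0.149 CPM over their 20163368 UMIs.

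To ask how the members differ between genotypes, CPM in typical cells were compared between libraries, and a gene was counted as past 1.5-fold (0.585 on the log2 scale) without any test. In homozygous over wild-type, 0 of the 28 members were higher and 2 were lower, against 2.96% and 1.95% of all 4261 genes that passed the same 20 CPM limit. Heterozygous over wild-type gave 0 higher and 2 lower, against 3.59% and 2.39% of genes. Homozygous over heterozygous gave 0 in each direction, against 0.681% and 0.469%. *Rgs17* and *Gnb2l1* were lower in both mutant libraries, so 0 members passed as higher and 2 as lower in both, against 1.78% and 1.20% of genes. Both comparisons share the wild-type library, so their counts are not independent of each other.

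*Rgs17* had a homozygous over wild-type log2 ratio of −0.69 (−0.96 to −0.42), a heterozygous over wild-type log2 ratio of −0.63 (−0.87 to −0.39) and a homozygous over heterozygous log2 ratio of −0.06 (−0.29 to 0.18). The mutant libraries therefore lay close together and below wild-type. Scaled to 10000 UMIs in each cell before averaging, the heterozygous ratio of *Rgs17* was −0.57, which no longer passed 1.5-fold. The same gap was present in the empty droplets, barcodes with 100 to under 500 UMIs that mostly hold free RNA, where *Rgs17* was at 43.5 CPM, 30.3 CPM and 28.6 CPM. Its empty-droplet log2 ratios were −0.61 (−0.79 to −0.42) and −0.52 (−0.73 to −0.31) for homozygous and heterozygous over wild-type. In the other sorted cells the order was the reverse, 28.3 CPM, 36.6 CPM and 40.2 CPM. Within 14 clusters of other cells with at least 20 cells in each library, the interval of the *Rgs17* ratio included 0 in every one for both comparisons.

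*Gnb2l1* had log2 ratios of −0.59 (−0.70 to −0.49) for homozygous and −0.66 (−0.76 to −0.57) for heterozygous over wild-type, and of 0.07 (−0.02 to 0.16) for homozygous over heterozygous. Unlike *Rgs17*, whose order was reversed in the other sorted cells, *Gnb2l1* was lower in the mutant libraries in every cell group. Atypical cells held 508 CPM, 319 CPM and 349 CPM, other cells 461 CPM, 271 CPM and 293 CPM, and empty droplets 393 CPM, 270 CPM and 264 CPM. Of the 14 clusters, 14 had a lower *Gnb2l1* level in homozygous than wild-type cells, 8 with an interval below 0, and 13 had a lower level in heterozygous cells, 9 with an interval below 0. The clusters come from the same 3 libraries, so they are not independent of each other. How other genes behave across these clusters was not computed. The rows of ribosomal proteins moved with *Gnb2l1*. Their 82 rows, looked up after the *Gnb2l1* values were seen, summed to 216734 CPM, 158639 CPM and 169519 CPM in typical cells and to 227137 CPM, 157407 CPM and 177797 CPM in empty droplets. Of these rows, 76 were lower in homozygous than wild-type typical cells, 22 of them by 1.5-fold or more, with a median log2 ratio of −0.41. In heterozygous over wild-type 79 were lower, 21 of them by 1.5-fold or more, with a median of −0.46. The median mitochondrial share per typical cell was 10.4%, 15.4% and 12.5%, also different between libraries. Ribosomal protein and mitochondrial rows together took 32.4%, 31.6% and 29.8% of typical-cell UMIs. Leaving them out of the scaling therefore lowers every mutant over wild-type ratio. *Gnb2l1* thus had to stay lower by 1.5-fold or more in both mutant libraries, and this scaling cannot separate it from those rows. The part of either share in the *Gnb2l1* ratio was not tested.

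*Gnb1* moved the other way, with log2 ratios of 0.46 (0.40 to 0.52) for heterozygous and 0.36 (0.29 to 0.42) for homozygous over wild-type, and the latter became −0.06 on raw UMIs per cell. It too moved in free RNA, at 580 CPM, 732 CPM and 683 CPM in empty droplets. Of the 14 clusters of other cells, 12 had a higher *Gnb1* level in homozygous than wild-type cells and 12 in heterozygous cells, each with 7 intervals above 0. As for *Gnb2l1*, these clusters share the libraries and are not independent of each other. Plotted by library and cell type, *Gnb1* and *Gnb2l1* split the libraries in opposite directions in typical cells, atypical cells and empty droplets.

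**Figure D2:**
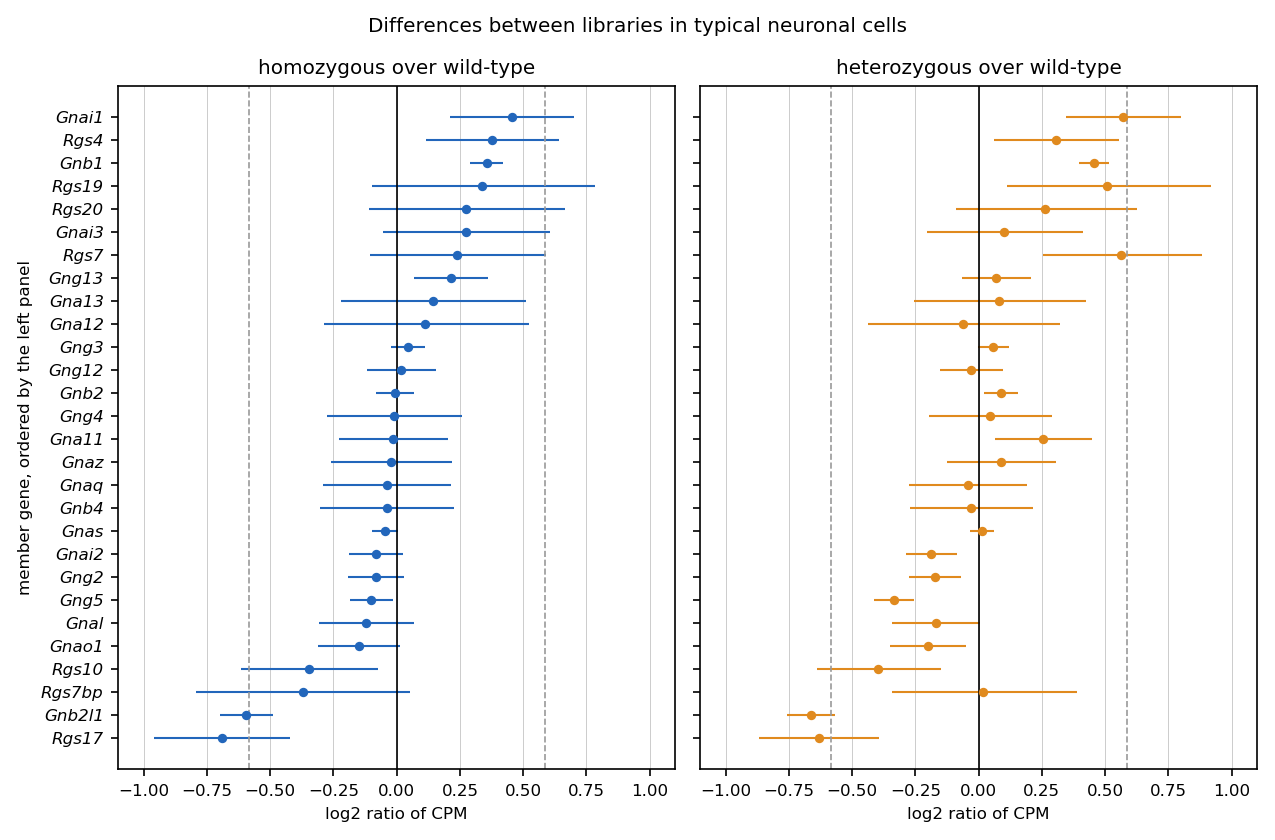
Log2 ratio of CPM in typical cells for the 28 members, homozygous over wild-type (left) and heterozygous over wild-type (right), with exact binomial 95% intervals; both panels share the wild-type library. Dashed lines mark 1.5-fold, passed by *Rgs17* and *Gnb2l1* in both panels. Raw UMIs per cell shift every gene of the left panel alike by −0.42. That shift leaves only *Gnai1* above 0 there, at 0.03. It puts *Gnb1*, *Rgs4*, *Rgs7*, *Rgs19*, *Rgs20*, *Gnai3*, *Gna12*, *Gna13*, *Gng3*, *Gng12* and *Gng13* below 0.

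**Figure D3:**
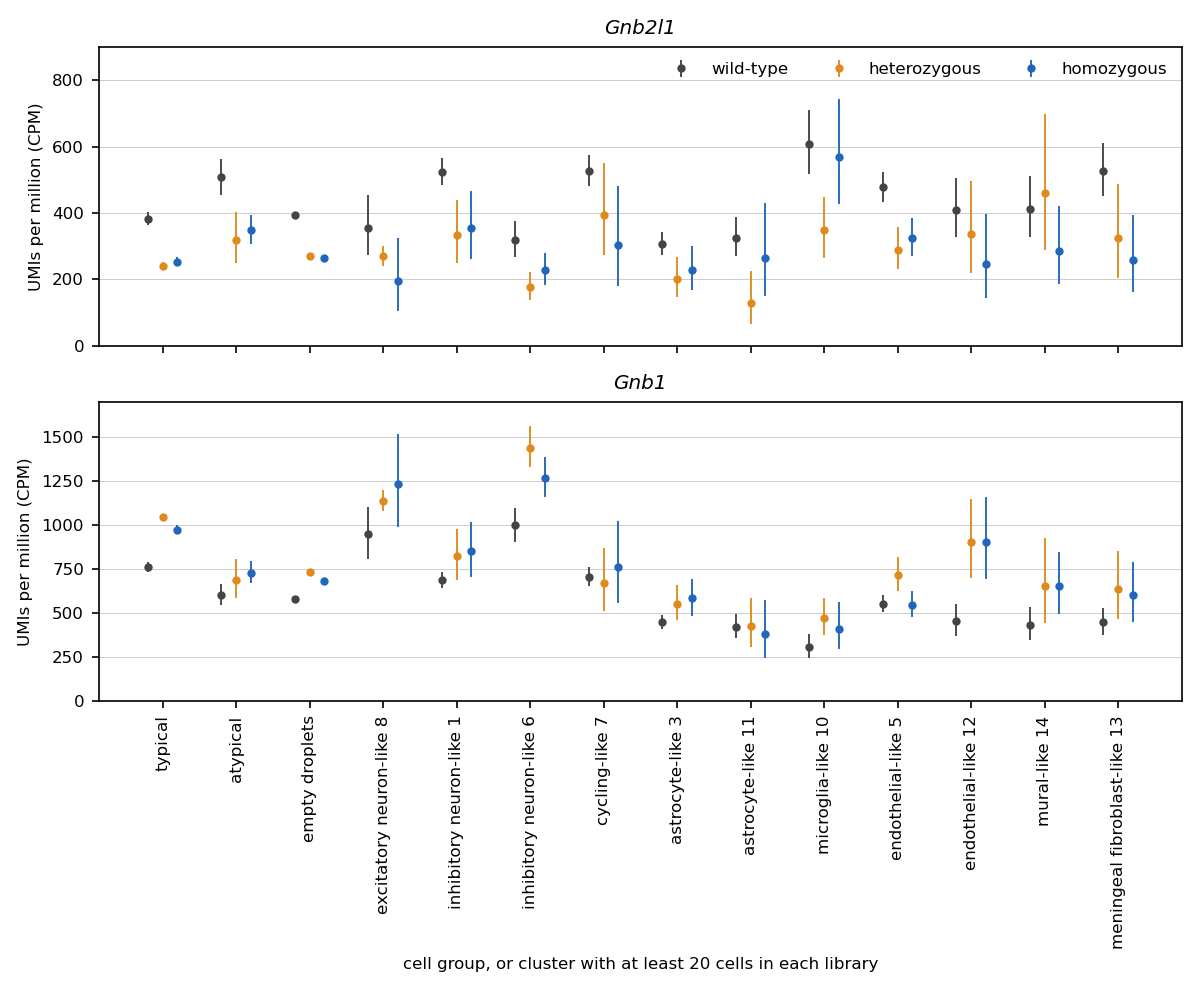
Level of *Gnb2l1* (top) and *Gnb1* (bottom) in typical cells, atypical cells, empty droplets and named clusters of other sorted cells, by library, with exact Poisson 95% intervals. *Gnb2l1* is highest in the wild-type library in all positions but the mural-like cluster, and *Gnb1* is lowest in the wild-type library in typical cells, atypical cells and empty droplets; per-cell UMIs turn the homozygous *Gnb1* ratio of typical cells to −0.06.

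Several members stayed under 1.5-fold with an interval that did not include 0. *Gnai1* was higher in both mutant libraries, by log2 0.45 (0.21 to 0.70) in homozygous and 0.57 (0.35 to 0.80) in heterozygous cells, and was also higher in their empty droplets, at 62.9 CPM and 70.0 CPM against 44.7 CPM. The 14 clusters of other cells were mixed. *Gnai1* was higher in 11 and lower in 3 for homozygous, and higher in 9 and lower in 5 for heterozygous over wild-type. Each comparison had 2 intervals above 0 and 0 below. *Rgs4* was higher by 0.38 (0.11 to 0.64) and 0.30 (0.06 to 0.55), the first of which became −0.04 on raw UMIs per cell. It was also higher in the mutant empty droplets, at 49.1 CPM and 52.0 CPM against 31.0 CPM, log2 ratios of 0.66 (0.49 to 0.84) and 0.745 (0.554 to 0.936) that exceed those of the cells. *Rgs10* was lower by a log2 ratio of −0.35 (−0.61 to −0.08) and −0.40 (−0.64 to −0.15), while empty droplets held more of it in the mutant libraries, 59.9 CPM and 64.1 CPM against 53.0 CPM. All 11 microglia markers were detected in typical cells of each library, and their sum moved the same way as typical-cell *Rgs10*, at 79.3 CPM, 60.7 CPM and 59.1 CPM in the wild-type, heterozygous and homozygous libraries, and their part in the result was not tested. *Rgs7* was higher in the heterozygous library only by its interval, at 0.56 (0.25 to 0.88) against 0.24 (−0.11 to 0.59) in the homozygous library, and the homozygous over heterozygous ratio was −0.32 (−0.57 to −0.08). Empty droplets held *Rgs7* at 33.3 CPM and 38.5 CPM in the homozygous and heterozygous libraries against 23.1 CPM in wild-type, log2 0.53 (0.32 to 0.73) and 0.74 (0.52 to 0.96). *Gng5* likewise was lower in the heterozygous library at −0.33 (−0.41 to −0.25), against −0.10 (−0.19 to −0.02) in the homozygous library. Over the 28 members, the interval lay above 0 for 4 and below 0 for 4 in homozygous over wild-type, and for 7 and 7 in heterozygous over wild-type. Over all 4261 genes the shares were 26.2% above and 13.5% below 0, and 26.8% and 16.8%, against 14.3% and 14.3%, and 25.0% and 25.0%, of members. The members' median log2 ratio was −0.01 and 0.03 in these comparisons, against 0.08 and 0.06 over all genes. Of the 28 members, 19 and 20 had the same sign in empty droplets as in typical cells. Among those with an interval off 0, 7 of 8 and 12 of 14 did. The share over all genes was not computed, so these counts are no result about the members.

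The bases before the start of *Rgs17*, *Gnb2l1*, *Gnb1* and *Gnai1*, the members set apart in the wild-type library, are printed so that the sequence can be read beside their values. The windows run from 250 to 51 bases before the RefSeq start (GRCm38.p6), 5′ to 3′ on the strand of the gene, at chr10:5922451-5922650 on the minus strand for *Rgs17*, chr11:48800110-48800309 on the plus strand for *Gnb2l1* (current symbol *Rack1*), chr4:155491111-155491310 on the plus strand for *Gnb1* and chr5:18360464-18360663 on the minus strand for *Gnai1*. Capitals mark GGTGTG, the core that T-box factors bind, searched on both strands.
Rgs17: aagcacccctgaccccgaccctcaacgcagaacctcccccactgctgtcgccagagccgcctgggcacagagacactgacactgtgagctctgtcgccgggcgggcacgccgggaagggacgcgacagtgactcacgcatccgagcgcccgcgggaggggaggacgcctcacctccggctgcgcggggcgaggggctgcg
Gnb2l1: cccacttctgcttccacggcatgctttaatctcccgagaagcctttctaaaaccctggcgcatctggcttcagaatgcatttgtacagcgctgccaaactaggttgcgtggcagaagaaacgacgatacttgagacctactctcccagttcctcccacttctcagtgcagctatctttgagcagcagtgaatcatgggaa
Gnb1: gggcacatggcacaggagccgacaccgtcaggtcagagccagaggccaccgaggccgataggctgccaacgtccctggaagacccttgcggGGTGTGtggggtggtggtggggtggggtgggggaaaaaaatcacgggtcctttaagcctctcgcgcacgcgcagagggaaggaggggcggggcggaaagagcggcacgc
Gnai1: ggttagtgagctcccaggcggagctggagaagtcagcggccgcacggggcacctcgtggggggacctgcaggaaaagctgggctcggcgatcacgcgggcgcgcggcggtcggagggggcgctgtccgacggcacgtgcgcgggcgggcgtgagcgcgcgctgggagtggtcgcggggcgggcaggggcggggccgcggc
Only *Gnb1* holds the core among these 4. In the RefSeq table of 32851 windows that run from 250 bases before to 50 after a start, 19.0% hold GGTGTG and 1.28% the longer AGGTGTGA, which contains it. The members have 48 windows, of which 17 hold GGTGTG and 0 hold AGGTGTGA. These windows belong to 36 members, some with several, and the 15 with GGTGTG in at least 1 window are *Gnb1*, *Gnb1l*, *Gng2*, *Gng3*, *Gng4*, *Gng8*, *Gng12*, *Gnai3*, *Gnao1*, *Rgs6*, *Rgs7*, *Rgs8*, *Rgs9*, *Rgs12* and *Rgs19*. A match describes letters in a window and is no evidence of binding.

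Atypical neuronal cells were compared with typical cells of the same library. The authors made this split from clusters of the same counts. The atypical cells had less of the excitatory markers *Neurod6* and *Nrgn*, with housekeeping genes at high levels. Differences between the 2 groups are therefore a description only. At 2-fold in all 3 libraries, 1 of 28 tested members was higher and 0 were lower, against 0.795% and 0.584% of 4278 genes. The tested genes had a mean of at least 20 CPM over typical and atypical cells together, which took in *Rgs2* and left out *Gna12* relative to the 28 members of the genotype comparisons. *Rgs2* entered through its atypical level, so the limit fixed its direction and its call is a description only. *Rgs2*, whose product is an R4 protein that acts mainly on Gq, was at 35.5 CPM, 46.2 CPM and 52.3 CPM in atypical cells and at 14.2 CPM, 11.6 CPM and 10.0 CPM in typical cells of the wild-type, heterozygous and homozygous libraries. The atypical level was the higher in each library, with log2 ratios of 1.33 (0.56 to 2.05), 1.99 (0.90 to 2.92) and 2.38 (1.76 to 2.98). *Rgs8*, another R4 gene, lay below the 20 CPM mean and is named after its values were seen. It was at 20.7 CPM, 27.7 CPM and 26.8 CPM in atypical cells and at 4.1 CPM, 3.7 CPM and 3.8 CPM in typical cells, log2 2.34 (1.18 to 3.49), 2.89 (1.36 to 4.14) and 2.83 (1.88 to 3.75). *Rgs9*, the striatal R7 gene, was at 20.7 CPM, 41.6 CPM and 16.1 CPM against 8.7 CPM, 6.9 CPM and 9.2 CPM. *Gnal* was higher in atypical cells in the heterozygous and homozygous libraries, at 175.7 CPM and 183.9 CPM, log2 0.91 (0.41 to 1.38) and 0.93 (0.65 to 1.20), and at 131.7 CPM in wild-type, log2 0.33 (−0.02 to 0.66).

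Markers of striatal projection neurons were also higher in atypical cells. The list holds no member, and 9 of its 10 genes were in the table and detected in the typical and atypical cells of every library. Its summed level was 423 CPM, 550 CPM and 640 CPM in atypical cells and 42.0 CPM, 38.4 CPM and 61.6 CPM in typical cells. Atypical cells were clustered without the members, a step added after these values were seen, which gave 4 clusters. The libraries filled them unevenly, with 168, 17, 39 and 80 wild-type, 11, 77, 8 and 11 heterozygous and 183, 150, 111 and 18 homozygous cells in clusters 1 to 4. In clusters 1, 2 and 3, of 362, 244 and 158 cells, *Gnal* was at 167 CPM, 192 CPM and 186 CPM, *Rgs8* at 26.6 CPM, 23.4 CPM and 36.5 CPM, and the striatal list at 621 CPM, 616 CPM and 580 CPM. In cluster 4, of 109 cells of which 80 were wild-type, *Gnal* was at 55.9 CPM, *Rgs8* at 4.3 CPM and the striatal list at 103 CPM. The cluster 4 value of *Rgs8* is 1 UMI. *Rgs9* was at 26.6 CPM, 21.1 CPM, 13.3 CPM and 17.2 CPM in clusters 1 to 4 from 18, 9, 4 and 4 UMIs, with overlapping intervals. *Rgs2* was at 54.7 CPM, 42.2 CPM, 33.1 CPM and 34.4 CPM in clusters 1 to 4, the last from 8 UMIs, with overlapping intervals. The part of such cells in the atypical levels was not tested further.

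*Rgs10* was at 84.3 CPM, 55.5 CPM and 145 CPM in atypical cells, with log2 ratios over typical cells of 0.59 (0.14 to 1.02), 0.39 (−0.58 to 1.21) and 1.72 (1.39 to 2.05). The homozygous value stood above the others. Markers of microglia, cells where *Rgs10* is high, summed to 149 CPM, 87.9 CPM and 81.9 CPM in the same atypical cells. These sums come from 101, 19 and 61 UMIs, and their part in the *Rgs10* levels was not tested. *Gnb2l1* was higher in atypical cells of every library, log2 0.41 (0.23 to 0.58), 0.40 (0.03 to 0.75) and 0.46 (0.27 to 0.65).

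Some subunit genes, named after their values were seen, had lower levels in atypical cells of each library, under 2-fold in at least 1 library. *Gng2* was at 178 CPM, 116 CPM and 132 CPM, log2 −0.77 (−1.05 to −0.49), −1.21 (−1.84 to −0.65) and −1.12 (−1.43 to −0.82) relative to typical cells. *Gng13* had log2 ratios of −1.11 (−1.55 to −0.69), −1.27 (−2.11 to −0.54) and −0.68 (−1.01 to −0.36). *Gng3*, *Gnb1* and *Gnas* had log2 ratios between −1.05 and −0.24, with all intervals below 0. The *Gnb1* level was uneven among the atypical clusters, at 506 CPM, 494 CPM, 1303 CPM (1177 to 1438) and 663 CPM in clusters 1 to 4, so cluster 3, of which 111 of 158 cells were homozygous, stood above typical cells of every library. Other subunits were not lower throughout, since *Gnb2* had ratios of −0.11 (−0.27 to 0.04), −0.40 (−0.68 to −0.13) and 0.12 (−0.01 to 0.26). The median over the 28 members tested here, *Rgs2* included, was −0.12, −0.12 and −0.18, against 0.02, −0.12 and −0.10 over all genes tested.

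**Figure D4:**
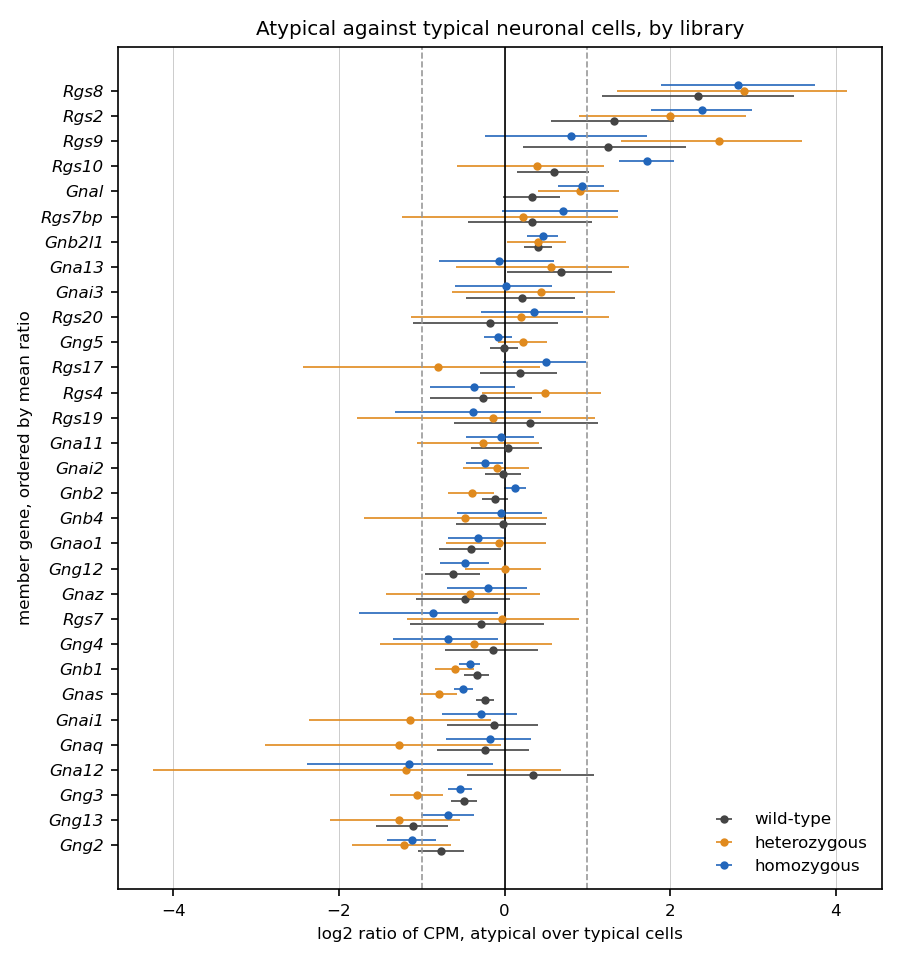
Log2 ratio of CPM, atypical over typical cells, for the 28 members with a mean of at least 20 CPM in typical cells and, beside them, *Rgs2*, *Rgs8* and *Rgs9*, by library with exact binomial 95% intervals. Dashed lines mark 2-fold; *Rgs2* and *Rgs8* pass it in all 3 libraries, and *Gng2*, *Gng13*, *Gng3*, *Gnb1* and *Gnas* lie below 0 in each.

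Other sorted cells are those the authors left out of the neuronal set. At 2-fold in all 3 libraries, 3 of 31 tested members (*Rgs5*, *Gng11* and *Rgs12*) were higher than in typical cells and 0 were lower, against 12.9% and 0.0386% of 5184 genes, so the share of members lay below the background. The tested genes had a mean of at least 20 CPM over both cell groups. These 3 members had typical-cell means between 10.3 CPM and 11.1 CPM and entered through the other cells, so the limit fixed their direction and their count is no result about the members. *Rgs5* was at 245 CPM, 137 CPM and 295 CPM in other cells of the wild-type, heterozygous and homozygous libraries and at 14.98 CPM, 7.58 CPM and 8.23 CPM in typical cells. *Gng11* was at 172 CPM, 77.3 CPM and 191 CPM against 17.7 CPM, 5.2 CPM and 10.5 CPM. *Rgs12* was at 33.9 CPM, 25.7 CPM and 40.2 CPM against 11.4 CPM, 11.3 CPM and 8.6 CPM. For *Rgs5* and *Gng11*, empty droplets held more than typical cells, at 73.4 CPM, 49.7 CPM and 57.5 CPM and at 79.0 CPM, 37.2 CPM and 44.0 CPM, and with that profile taken off, typical-cell *Rgs5* was at 0 CPM, 1.05 CPM and 0 CPM and *Gng11* at 0 CPM, 0.21 CPM and 2.04 CPM. All 10 endothelial markers were detected in typical cells of each library as well, summing to 137 CPM, 46.6 CPM and 74.7 CPM.

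The other cells were clustered without the members, hemoglobin or mitochondrial genes, which gave 22 clusters, of which 13 were named from marker genes. Cluster names rest on rebuilt clusters, not on an annotation of the authors. Levels below pool the 3 libraries, and clusters differ in how much each library gave.

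Mural-like cells held the highest single value of the set. In the 134 mural-like cells, whose markers *Acta2*, *Kcnj8* and *Tagln* were among the leading genes, *Rgs5* reached 6944 CPM (6664 to 7234), with 6854 CPM, 6169 CPM and 7570 CPM by library, against a mean of 10.3 CPM in typical cells. *Rgs5* is a pericyte gene that restrains signaling by Gq and Gi coupled vasoactive receptors. *Gng11* was also highest there at 1641 CPM (1506 to 1785), and *Rgs4* reached 362 CPM (300.1 to 433), with 346 CPM, 378 CPM and 389 CPM by library. In the 452 endothelial-like cells of cluster 5, *Gnai2* was at 1374 CPM (1318 to 1431), *Gng5* at 1054 CPM, *Gng11* at 770 CPM (729 to 813), *Rgs12* at 132 CPM (115 to 151) and *Rgs3* at 83.4 CPM (70.2 to 98.5). *Rgs5* was at 453 CPM there, but unevenly by library, at 518 CPM (474 to 565), 629 CPM (542 to 726) and 163 CPM (125 to 207), so the homozygous library lay below both others. The neuronal members were low in these cells, with *Gnao1* at 16.7 CPM, *Gng3* at 108 CPM and *Gng13* at 26.2 CPM. *Rgs3* in the endothelial-like cells of cluster 5 was at 103 CPM, 53.9 CPM and 57.5 CPM by library. In cluster 12, of 173 cells with *Egfl7* and *Pecam1* among the leading genes, *Rgs5* was lowest in the wild-type library instead. Its levels by library were 69.9 CPM (39.1 to 115), 445 CPM (306 to 625) and 117 CPM (50.4 to 230), from 15, 33 and 8 UMIs. *Gng11* was at 442 CPM, 364 CPM and 758 CPM there. The 165 meningeal fibroblast-like cells had *Gng11* at 167 CPM, with 188 CPM, 183 CPM and 70.9 CPM by library, and *Rgs16* at 20.8 CPM, the latter from 10 UMIs.

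Microglia-like cells were high in other members. In the 191 microglia-like cells *Rgs10* was at 697 CPM (628 to 772), with 784 CPM, 552 CPM and 716 CPM by library, *Rgs2* at 157 CPM (125 to 194) and *Gna15*, a Gq-class subunit of blood lineages, at 91.6 CPM (67.8 to 121). *Gna15* was at 0.82 CPM, 0.29 CPM and 0.66 CPM in typical cells. The unnamed cluster 16, led by *Cd209g*, *Lyve1* and *F13a1*, also had *Rgs10* (567 CPM) and *Gna15* (66.5 CPM), and it held 29 UMIs of *Rgs18*, a hematopoietic R4 gene, at 64.3 CPM (43.1 to 92.3). The unnamed cluster 2 had *Rgs10* at 220 CPM and mixed microglial and neuronal genes among its leading genes, and cluster 21, led by *Plac8* and *H2-Aa*, had *Rgs2* at 217 CPM from 18 UMIs.

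Among glia, the 556 astrocyte-like cells of cluster 3 had *Rgs7* at 138 CPM, *Gna13* at 98.8 CPM and *Rgs20* at 79.8 CPM, and the 174 of cluster 11, led by *Gfap*, had *Gng5* at 778 CPM and *Rgs9* at 39.3 CPM from 21 UMIs. The 81 oligodendrocyte lineage-like cells of cluster 17 had *Gng12* at 344 CPM and *Gnb4* at 125 CPM. *Gnb2l1* was at 637 CPM in the 226 oligodendrocyte lineage-like cells of cluster 9, led by *Pdgfra*, with 192 wild-type, 9 heterozygous and 25 homozygous cells.

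Among neurons outside the typical set, the 339 inhibitory neuron-like cells of cluster 6, led by *Npy*, *Sst* and *Vip*, had *Rgs11* at 70.0 CPM (56.0 to 86.4), with 72.5 CPM, 38.2 CPM and 102 CPM by library, against a mean of 4.9 CPM in typical cells. The same cells had *Rgs17* at 106 CPM, *Gnb1* at 1233 CPM, *Gng2* at 421 CPM and *Rgs12* at 43.1 CPM. Their inhibitory neuron markers summed to 17295 CPM and their striatal projection neuron markers to 607 CPM. Of these lists, 6 of 9 and 7 of 9 genes were at least 2-fold above their level in all other sorted cells pooled. The 773 inhibitory neuron-like cells of cluster 1, led by *Dlx6os1*, *Sp8* and *Meis2*, lacked that *Rgs11* level (2.5 CPM from 4 UMIs) and had *Rgs3* at 53.9 CPM (43.1 to 66.5). In the 320 cycling-like cells, 267 of them wild-type, *Rgs3* was at 49.4 CPM and *Rgs16* at 24.3 CPM. Nearly all of these counts came from the wild-type library, with 52, 2 and 1 UMIs of *Rgs3* (53.7 CPM, 23.2 CPM and 16.9 CPM) and 25, 2 and 0 UMIs of *Rgs16* by library. The unnamed cluster 18, led by *Lhx1*, *Reln*, *Ndnf* and *Trp73*, had *Rgs4* at 182 CPM, *Rgs7bp* at 103 CPM and *Rgs5* at 97.7 CPM from 36 UMIs in 70 cells. The 318 excitatory neuron-like cells of cluster 8, 257 of them heterozygous, had 287 cells above 3997 UMIs, the highest count of any typical cell. Their member levels were close to typical cells, with *Gnas* at 1304 CPM, *Gnb1* at 1120 CPM and *Gng3* at 896 CPM.

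**Figure D5:**
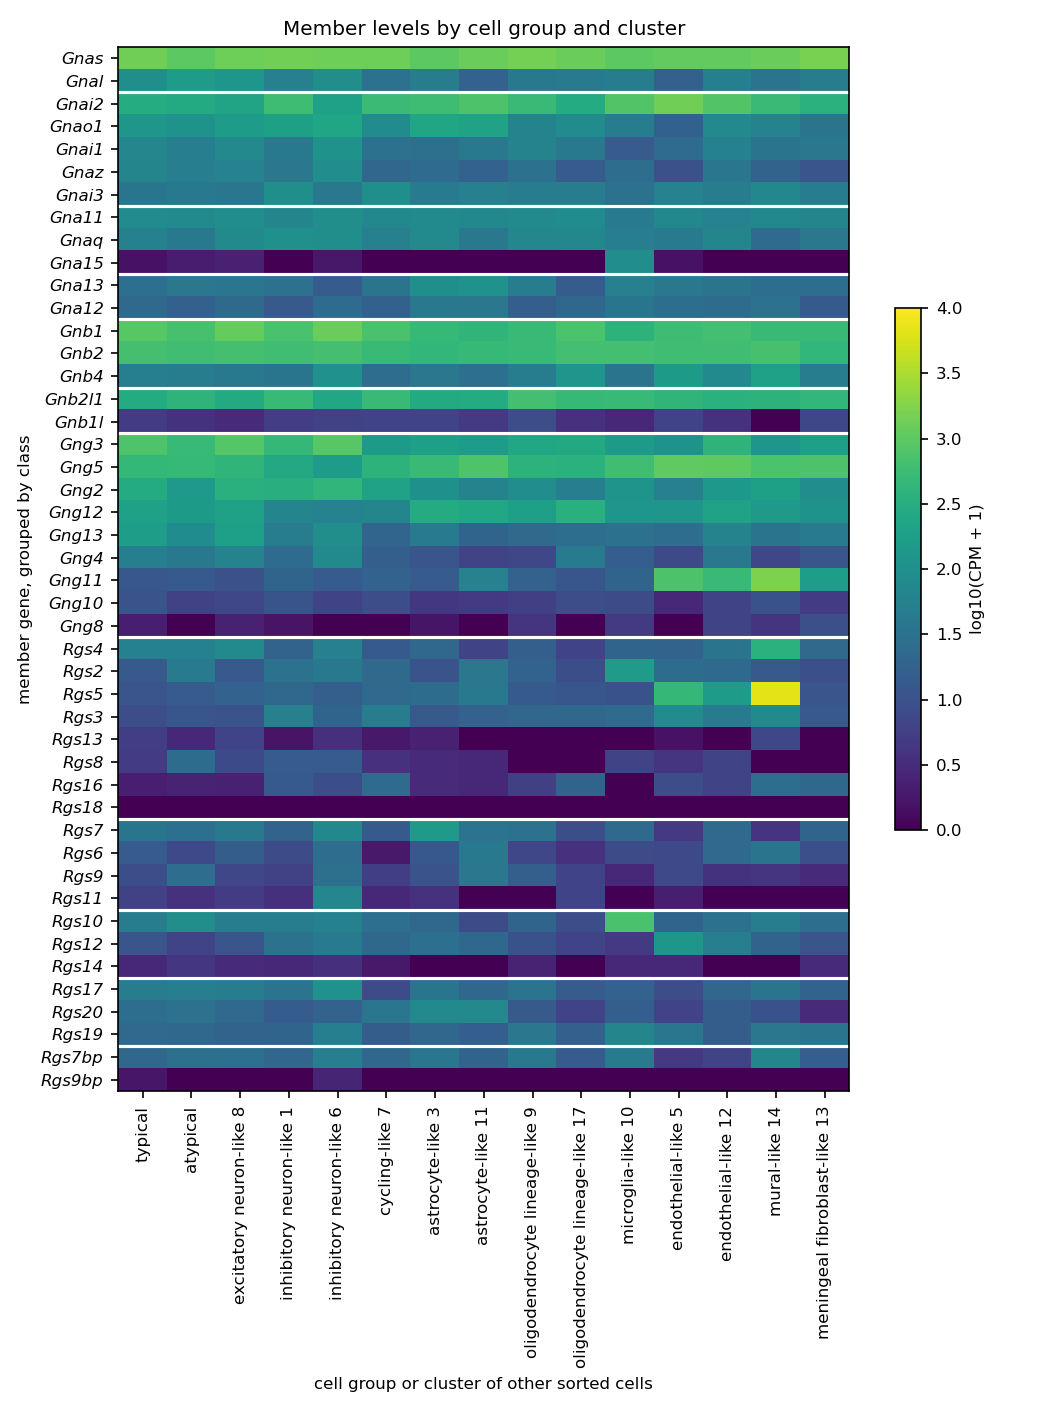
Level of all 46 members as log10(CPM + 1), with rows grouped by class, in typical and atypical cells (mean of 3 libraries) and in 13 named clusters of other sorted cells (libraries pooled). *Rgs5* in mural-like cells (6944 CPM) is the brightest cell; *Gng11* is bright in endothelial-like and mural-like clusters, and *Rgs10* and *Gna15* in microglia-like cells.

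Of a list of receptors, effectors, receptor kinases and modulators of the pathway, 72 genes were in the table and 25 had a mean of at least 20 CPM in typical cells. Of these 25, 1 was higher and 0 were lower by 1.5-fold in both mutant libraries, against the 1.78% and 1.20% of all genes given above. That gene was *Ncs1*, a calcium sensor that binds receptor kinases, at 111 CPM, 240.1 CPM and 258 CPM, log2 1.22 (1.06 to 1.38) for homozygous and 1.11 (0.96 to 1.27) for heterozygous over wild-type. The most abundant receptors were *Gabbr1* (99.6 to 108 CPM), a GABA-B subunit, *Adgrl1* (56.1 to 60.5 CPM), a latrophilin, and *Grm5* (33.0 to 43.3 CPM), a Gq-coupled glutamate receptor. By the mean of the 3 libraries, the most abundant effectors were the cyclase *Adcy1* (121 to 138 CPM) and the protein kinase A genes *Prkar1a* (118 to 132 CPM) and *Prkar1b* (88.6 to 95.9 CPM). *Prkaca*, the catalytic α subunit, named after its values were seen, lay close below *Prkar1b* in that mean and above it in both mutant libraries. It was at 71.1 CPM, 104 CPM and 104 CPM, log2 0.55 (0.34 to 0.76) and 0.55 (0.35 to 0.75), while *Prkacb* was at 70.0 CPM, 66.4 CPM and 65.5 CPM. Among kinases and arrestins, *Arrb1* (33.4 to 38.9 CPM), *Grk6* (27.5 to 34.4 CPM) and *Adrbk1* (20.3 to 23.7 CPM) led, and no interval of these 3 excluded 0. *Pdcl3* (32.4 to 44.4 CPM), of the phosducin-like family, and *Gprin1* (29.2 to 34.9 CPM), which binds Gα, followed *Ncs1* among modulators.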

How the data were processed

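Sorted tdTomato-positive cells of 3 mouse libraries were measured. Raw counts (UMIs per gene and cell) were deposited by the authors, made with Cell Ranger 2.0.1 on mm10, per barcode for each library and in a table of 17396 filtered cells and 14933 genes. In the deposited cell list the mitochondrial column is a fraction, the mitochondrial share of each cell. The neuronal table named as raw holds log-normalized values and its partner scaled values, and neither was used. Cell groups follow the authors' lists. UMIs were summed per library and cell group with Python 3.11.15, as CPM, with exact Poisson and binomial intervals (95%, scipy 1.17.1). The members and gene lists were chosen with earlier results of these data known. Named were members with a mean of at least 20 CPM in typical cells, members past 2-fold in atypical or other cells, members at 20 CPM and 4 times the typical level in a cluster, and of the related list the 3 most abundant of each class and those past 1.5-fold in both mutant libraries. Members high in a cluster on under 10 UMIs are not named for it, a limit chosen after the data were seen, and other cluster values on so few UMIs are given with their number. Clusters are Leiden clusters (scanpy 1.11.5). Alternatives were edgeR 4.0.16 TMM and DESeq2 1.42.0 size factors, per-cell means, cells thinned to 1000 UMIs each, levels after the profile of empty droplets was taken off, typical cells short of their top 5% by UMIs (also in place of a doublet caller), other filters and folds, and, added after the data were seen, CPM outside ribosomal protein and mitochondrial rows. Gene positions are from GENCODE on GRCm38 and windows before gene starts from RefSeq on GRCm38.p6. The calculation of ratios and intervals was checked on simulated Poisson counts. The intervals assume that same model, and the simulation held no spread between cells or libraries.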

Additional observations from a re-analysis of the deposited data

Results flagged for a closer look

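For 2 members, a ratio between libraries pointed one way in typical and the other way in atypical cells, with both counting intervals off 0. *Rgs10* had a homozygous over wild-type log2 ratio of −0.35 in typical and 0.78 (0.31 to 1.27) in atypical cells. *Gnb2* had a homozygous over heterozygous log2 ratio of −0.10 in typical and 0.42 (0.13 to 0.73) in atypical cells. The atypical cells of the libraries fell into different clusters, with 168, 17, 39 and 80 wild-type, 11, 77, 8 and 11 heterozygous and 183, 150, 111 and 18 homozygous cells in clusters 1 to 4. Within clusters 1 to 4, *Rgs10* was at 137 CPM, 150 CPM, 162 CPM and 70.4 CPM in homozygous cells and at 99.5 CPM, 87.4 CPM, 56.8 CPM and 66.0 CPM in wild-type cells, from 39, 35, 32 and 2 and from 37, 3, 5 and 12 UMIs, so the homozygous value was the higher in each, with overlapping intervals. The part of the mix in the *Gnb2* ratio was not tested. With 1 library per genotype, neither difference was tested.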

How the results depend on the processing

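No paired analysis was possible because each genotype has 1 library and the labels give no replicate numbers. With 1 library per group, leaving out a replicate was also not possible. *Rgs17* and *Gnb2l1* stayed below 0 in both mutant over wild-type comparisons under every alternative of the scaling, between −1.11 and −0.57. Raw UMIs per cell shift every gene alike by −0.42 in homozygous over wild-type and −0.33 in homozygous over heterozygous, and the counts were 4 lower there, 3 lower in homozygous over heterozygous and 6 higher in other cells. Thinning, and pooling typical with atypical cells, gave 1 higher member (*Rgs7*) in heterozygous over wild-type, and per-cell scaling to 10000 UMIs before averaging gave 1 lower (*Gnb2l1*, without *Rgs17*). A filter at 100 CPM left 1 lower in each mutant over wild-type comparison, 0 higher in atypical cells and 1 higher in other cells. The matching shares of all genes at that filter were 2.51% (homozygous), 3.07% (heterozygous), 0.900% and 6.44%. With no filter, homozygous over wild-type gave 2 higher and 7 lower of 45 members, heterozygous over wild-type 2 and 7, homozygous over heterozygous 2 and 1, atypical cells 2 higher of 35 and other cells 7 higher of 45, against 11.6% and 15.1%, 10.2% and 14.8%, 9.78% and 7.32%, 2.12% and 22.3% of all genes. At a looser fold limit for the genotype comparisons (0.32 on the log2 scale) the counts were 4 and 4, 4 and 4, and 0 and 2 of 28 in the order of these genotype comparisons, against 17.2% and 8.5%, 17.1% and 9.5%, and 4.04% and 2.68% of all genes, and at 1.5-fold atypical cells had 2 lower (*Gng2* and *Gng13*), against 2.71%. The empty-droplet profile was subtracted at 25.6%, 13.4% and 20.3% of typical-cell UMIs (wild-type, heterozygous, homozygous), the lowest of 6 marker-list estimates. These estimates ran from 13.4% to 102%, the highest from the astrocyte and radial glia markers. The subtraction gave 1 lower in atypical cells (*Gng2*) and left 1 higher in other cells. *Rgs5* and *Gng11* were then at 0 in typical cells of at least 1 library, which gives no ratio. TMM and DESeq2 factors each gave 1 lower in other cells (*Gng13*) and 2 higher, without *Rgs12*. The added CPM outside ribosomal protein and mitochondrial rows left all counts as they were. Shares over all genes were not computed for the alternatives of scaling, thinning, pooling and subtraction. Their counts are therefore no result about the members. Of 84 single-member ratios, raw UMIs per cell moved 58 beyond their counting interval, and each other alternative moved at most 2.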
